A study of Mus musculus with 6 samples.

Results

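The meningeal spots of 6 Visium sections of the mouse brain were examined across 3 ages. Visium captures RNA from a tissue section on a grid of barcoded spots, each of which can cover several cells of different types. In every section, each spot with at least 500 UMIs (unique molecular identifiers, a count of captured RNA molecules) received a score, the sum over Col1a2, Slc6a13, Fmod and Dcn of the log-transformed UMIs per 10000 UMIs of the spot. The 35 highest-scoring spots of each section were taken as meningeal spots, which gave 210 of 16741 spots. The other 16531 spots served as the remainder of each section.

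The sections came from male C57BL/6J mice aged 6 months (young), 18 months (middle) and 21 months (old), with no treatment, transgene or other genotype named. The labels give 2 males and 2 sections per age. Brains were frozen in embedding medium, cut coronally at 16 micron at 1 brain level, fixed with methanol and stained with haematoxylin and eosin before capture. Both young sections, middle section 1 and old section 1 lay on 1 slide, and middle section 2 and old section 2 lay on another, so that the second slide held no young section.

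The meninges are the membranes around the brain: a dura under the skull, the arachnoid with its barrier cells, and the pia, which follows the brain surface. Their fibroblasts make collagens and proteoglycans and carry many solute transporters, and the compartment also holds arteries and veins with their muscle coats, resident macrophages and, on the brain side, the endfeet of surface astrocytes. Immediate early genes are those transcribed within minutes of a stimulus, heat shock genes encode chaperones induced by protein damage, and both groups are low in resting cells of many tissues.

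Member spots held 408875 to 725940 UMIs per section, 0.671 to 0.944% of the section's UMIs, and the smallest sum was that of old section 2. The median UMIs per member spot were 20012 and 15801 (young), 17079 and 15310 (middle) and 14041 and 11302 (old), below the 20583 to 30214 of the other spots. Mitochondrial transcripts made up 13.04 to 16.18% of member UMIs. Old section 2 stood apart from the other 5 sections on the first principal component of the member sums (25.85% of the variance), at 33.8 against -15.2 to -0.53. On the second component (20.8%) old section 1 stood apart, at 27.6 against -16.6 to 6.15. Replicate sections of 1 age differed beyond sampling noise (chi-square per degree of freedom of 2.16 to 3), and none was counted as a repeat. This value cannot show whether 2 sections came from 1 male or 2, since the tissue under the chosen spots can differ too. Pairs of sections shared the barcodes of 0 to 3 member spots, and barcodes mark grid positions. The tests below compare 2 sections with 2, and their p-values measure the spread between these sections.

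The genes of the score were used to choose the spots, and their values describe the choice. Fmod, which encodes the collagen-binding proteoglycan fibromodulin, stood at 228 to 309 CPM (counts per 1000000 UMIs of the sum) in the member sums against 2.43 to 3.90 in the other spots. Col1a2, a chain of type I collagen, stood at 208 to 338 CPM. Dcn, which encodes the proteoglycan decorin, stood at 193 to 379 CPM. Slc6a13, a transporter of GABA and taurine, stood at 180 to 285 CPM. The members' CPM was 26.0 to 113 times that of the other spots for these 4 genes, and the member spots held 17.0 to 45.5% of each gene's UMIs in the section. Of the 35 members of a section, 21 to 32 had UMIs of all 4 genes.

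The number of 35 cut through a continuous range of scores. The last member and the first spot left out scored 4.08 and 4.06 in young section 1, 3.109 and 3.098 in young section 2, and 3.24 and 3.22 in middle section 1. In middle section 2 these scores were 3.13 and 3.09, in old section 1 both 3.63, and in old section 2 3.40 and 3.37. A score of 0 was found in 72.5 to 76.4% of the other spots. Spots with all 4 genes also lay outside the 35, with 42 in young section 1 and 13 to 19 in the other sections.

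Genes outside the score are described next, with no test, since the spots were chosen by level. Among 2613 genes with at least 50 CPM in every member sum, the 20 with the highest smallest ratio of members to other spots held, beside the score's genes, a further set of matrix, transport and secretion genes. Prg4, which encodes the lubricating glycoprotein lubricin, was 53.8 to 141 times as high as in the other spots. Slc22a6, an organic anion transporter, was 52.3 to 111 times as high. Aldh1a2, which makes retinoic acid, was 45.2 to 74.4 times as high. These ratios overlapped those of the genes that set the score.

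Several leading genes mark particular layers or products of the meninges. Ptgds, whose product makes prostaglandin D2 and carries lipids in cerebrospinal fluid, was the most abundant of the leading genes. Its level was 36933 and 21407 CPM in young, 19393 and 32166 in middle and 34645 and 27312 in old member sums. The ratio of Ptgds to the other spots was 27.8 to 42.0, and the ages overlapped. Gjb2, a gap junction protein of leptomeningeal cells, was 29.1 to 40.6 times as high as in the other spots. Slc6a20a and Slc13a4, transporters of amino acids and of sulphate, had ratios of 23.3 to 41.7 and 20.7 to 42.9. Myoc, which encodes the secreted protein myocilin, was 32.8 to 55.5 times as high. At the other end, Pcp4, a calmodulin regulator of neurons, stood at 0.211 to 0.293 of its level in the other spots.

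**Figure D1:**
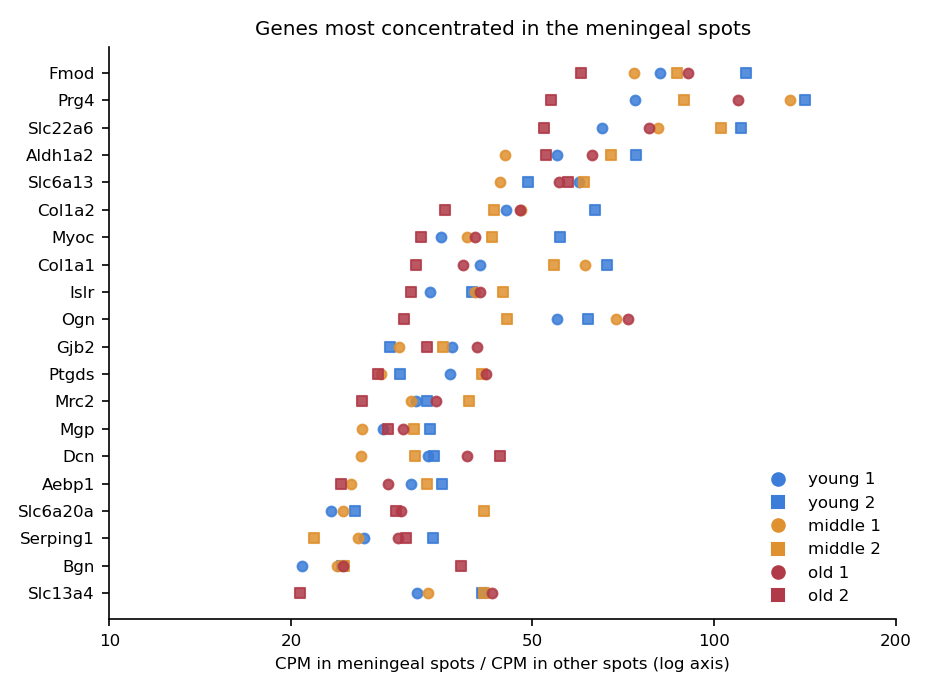
Ratio of CPM in the 35 meningeal spots to CPM in the other spots of the same section (log axis) for the 20 leading genes, with 1 point per section, circles for replicate 1 and squares for replicate 2, coloured by age. All 20 genes were more than 20 times as high in the members of each of the 6 sections, with ratios from 20.7 to 141.

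The marker lists of the cell types that such a spot could hold are given next. All 22 genes of the fibroblast list had UMIs in the member sums, and their summed CPM was 24.2 to 34.9 times that of the other spots. In 32 to 35 of the 35 members of a section, the fibroblast sum lay above the 95th percentile of the other spots. Ptgds alone made up 84.5 to 89.4% of this sum. Without Ptgds, an alternative chosen after seeing the data, the ratio was 13.3 to 16.3, and 34 or 35 members of a section lay above that percentile. Border macrophage markers were 12.9 to 18.3 times as high, mural cell markers 5.16 to 10.6 times and endothelial markers 2.66 to 3.98 times. Markers of astrocytes and the glia limitans, the astrocyte layer under the pia, were 2.80 to 4.08 times as high. Neuronal markers stood at 0.551 to 0.735 of their level in the other spots, at 3224 to 4515 CPM, so RNA of adjoining brain tissue was present in the spots. Cells and RNA per cell cannot be told apart in such sums: a lower value can stand for fewer cells of a type or for less RNA in each.

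Some of the rarer classes were carried by single spots or sections. Choroid plexus markers summed to 419 and 6447 CPM in young, 390 and 2192 in middle and 6445 and 3901 in old member sums, and 1 spot held 81.8% of those UMIs in young section 2. The sum for lymphocytes and plasma cells was 666 CPM in middle section 2, with 90.2% of it from 1 spot, against 41.3 to 144 CPM in the other 5 sections. Neutrophil markers stood at 240 CPM in old section 2, with 74.5% from 1 spot, against 25.0 to 130 CPM elsewhere. Mural cell markers reached 2289 CPM in old section 2 against 938 to 1153 CPM in the other sections. Haemoglobin and other blood genes summed to 561 and 1437 CPM in young, 399 and 216 in middle and 1700 and 1780 in old sections. The part of these classes in the age comparisons below was not tested beyond the left-out spots and sections named there.

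**Figure D2:**
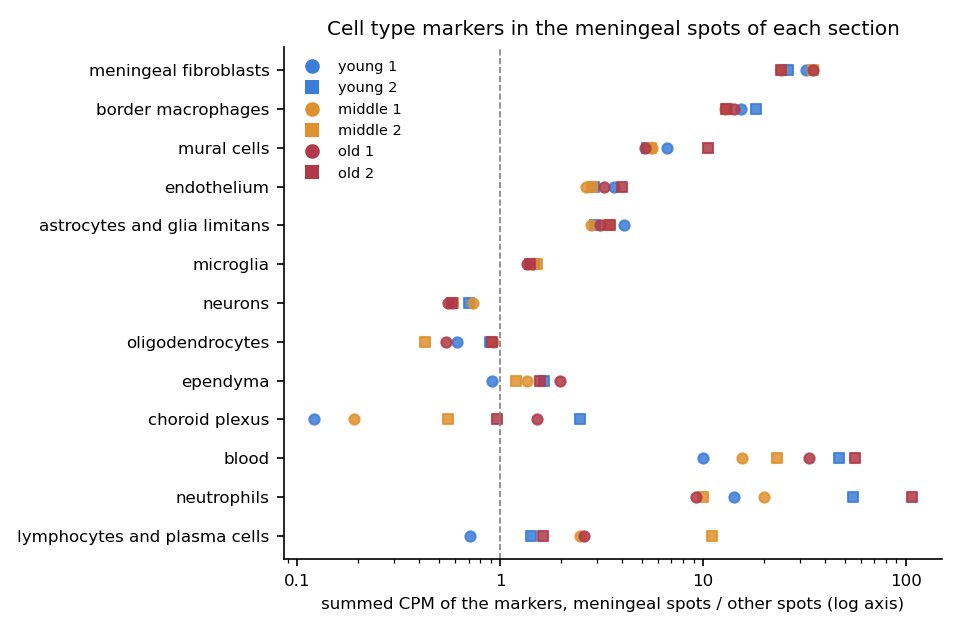
Summed CPM of each marker list in the meningeal spots over that in the other spots of the section (log axis, dashed line at 1), with 1 point per section, circles for replicate 1 and squares for replicate 2. Fibroblast markers stand at 24.2 to 34.9 in all 6 sections, neuronal markers below 1, and choroid plexus, blood, neutrophil and lymphocyte markers spread widely between sections.

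Which genes differed with age inside the meningeal spots was tested on the UMIs summed over the 35 members of each section. Called lower in both old and middle members were, among others, the nuclear receptors Nr4a1, Nr4a2 and Nr4a3, the regulators Errfi1, Fosl2 and Cebpd, the adhesion molecules Vcam1 and Icam1, the kinase Sgk1 and the chaperone Hspa1b. No tested member of the lists of collagens, small proteoglycans, basement membrane, matrix turnover and meningeal solute carriers was called. Since 0.234 and 0.367% of all tested genes were called, such short lists would mostly hold none, and this does not set them apart. Of 8987 genes tested with edgeR's quasi-likelihood test at an adjusted p under 0.05, 21 (0.234%) differed between old and young, 1 higher and 20 (0.223%) lower in old. Between middle and young 33 genes (0.367%) differed, 1 higher and 32 (0.356%) lower in middle. Both comparisons use the same 2 young sections. With each section left out in turn the counts were 26 to 50 and 31 to 52. The highest old against young count, 50 without old section 1, held 20 higher and 30 lower genes. On the first slide alone, where middle and old have 1 section each and are assumed to vary like the young, the counts were 30 and 41, and with slide as a block they were 10 and 16. Depth was lower in the old sections, and with every member sum thinned to the smallest the counts were 20 and 20.

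The structural genes are given first, where 0.367% (middle) and 0.234% (old) of all tested genes were called. None of the 15 tested collagen genes was called at 18 or 21 months, and their median log2 difference was -0.31 for middle minus young and -0.19 for old minus young, against 0.00 over all tested genes. Col1a1, the other chain of type I collagen, stood at 118 and 153 TMM-scaled CPM (CPM after scaling by the trimmed mean of M-values) in young, 121 and 122 in middle and 113 and 82.6 in old members. Both old values lay below the young ones, and the log2 difference of -0.45 ± 0.23 (SE) had an adjusted p of 0.914. None of the 5 tested small leucine-rich proteoglycans beyond those of the score was called, with medians of -0.23 and 0.43. Among them Bgn (biglycan) stood at 160, 156, 142, 159 and 175 TMM-scaled CPM in the first 5 sections and at 300 in old section 2. For the 14 basement membrane genes the medians were -0.10 and 0.06, and for the 21 genes of collagen processing and matrix turnover -0.23 and 0.09, with no call.

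Transport, identity and secreted signals also had no called member, where 0.367% (middle) and 0.234% (old) of all tested genes were called. The 13 tested solute carriers had median log2 differences of -0.15 (middle minus young) and 0.10 (old minus young). Slc22a6 stood at 141 and 167 TMM-scaled CPM in young, 111 and 166 in middle and 164 and 135 in old members, and the ages overlapped. The 20 tested genes of arachnoid and pial identity had medians of 0.01 and 0.21, and the 20 secreted signals -0.16 and 0.02. Igf2, the growth factor that meningeal cells release, stood at 609 and 521 TMM-scaled CPM in young, 381 and 417 in middle and 508 and 546 in old members. The middle sections lay below both young ones, with an adjusted p of 0.469. Ptgds averaged 30340 ± 12346 TMM-scaled CPM in young, 26734 ± 9849 in middle and 32468 ± 6372 in old members (SD, n = 2 each).

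The vessel and interferon lists gave no call either, at the same shares over all tested genes (0.367 and 0.234%). The 9 mural cell genes had medians of 0.38 in middle and 1.02 in old against young, and 1 old section stood apart. Acta2, smooth muscle actin, stood at 138 and 114 TMM-scaled CPM in young, 241 and 199 in middle, 154 in old section 1 and 478 in old section 2. The 15 endothelial genes had medians of -0.07 and 0.33. For the 21 tested genes of antigen presentation and the interferon response, the medians were -0.13 and 0.43, and 18 of the 21 were above 0 in old. The list's summed level was 1869 and 1840 CPM in young, 1445 and 1917 in middle and 2001 and 2732 in old members. In the other spots it was 333 and 414 CPM in young, 448 and 463 in middle and 469 and 518 in old sections. Isg15, a ubiquitin-like interferon target, stood at 30.6 and 3.55 TMM-scaled CPM in young, 23.9 and 22.7 in middle and 59.6 and 60.1 in old members. The old sections lay above all others, and the log2 difference of 1.70 ± 0.42 (SE) missed the threshold (adjusted p = 0.0694).

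**Figure D3:**
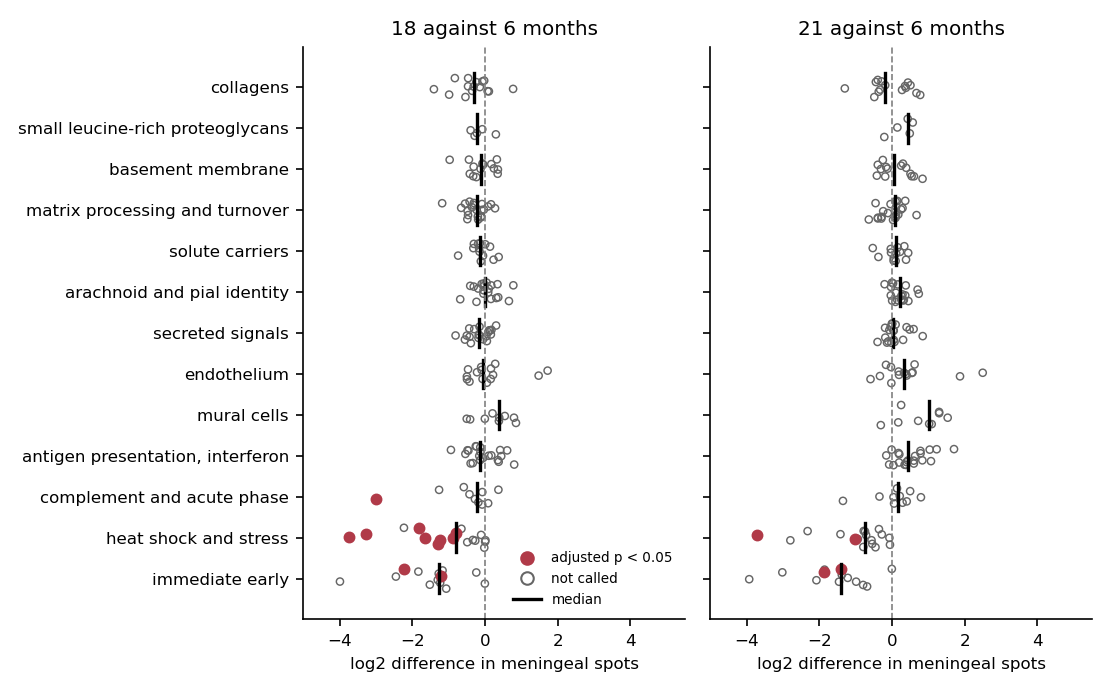
Log2 difference of each tested gene of 13 lists in the meningeal spots, 18 minus 6 months and 21 minus 6 months, with called genes in red, genes not called as open points and a bar at the list's median. The medians lie below 0 for the heat shock and stress list (-0.79 and -0.74) and the immediate early list (-1.28 and -1.41). The structural lists have no called gene, where 0.367% (18 months) and 0.234% (21 months) of all tested genes were called.

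The Nr4a genes encode orphan nuclear receptors that are transcribed rapidly after many stimuli. Nr4a2 (ENSMUSG00000026826, chr2:57106830-57124003, minus strand, GRCm38) stood at 197 and 165 TMM-scaled CPM in young, 23.9 and 22.7 in middle and 24.7 and 17.5 in old members. The young values were far above the others, with no overlap. Means were 181 ± 22.2 in young, 23.3 ± 0.883 in middle and 21.1 ± 5.04 in old (SD, n = 2 each). Nr4a2 fell by 2.95 ± 0.28 on the log2 scale (SE, adjusted p = 2.67e-15) from young to middle and by 3.07 ± 0.30 (adjusted p = 3.19e-14) from young to old, by edgeR's quasi-likelihood test. UMIs of Nr4a2 lay in 29 and 27 of the 35 young members and in 6 to 11 members of the middle and old sections, and the richest spot held 10.4 and 9.68% of the young UMIs, so no single spot carried the young level.

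Both relatives moved the same way. Nr4a1 (chr15:101254269-101274795, plus strand) stood at 455 and 325 TMM-scaled CPM in young, 118 and 47.1 in middle and 123 and 87.6 in old members. It fell by 2.24 ± 0.32 (adjusted p = 0.00924) to 18 months and by 1.88 ± 0.32 (adjusted p = 0.0417) to 21 months. With the newer quasi-dispersion or 50 spots per section Nr4a1 was called at neither age (adjusted p = 0.109 and 0.188 at 18 months, 0.267 and 0.365 at 21 months), and with DESeq2 or limma it was not called at 21 months (adjusted p = 0.353 and 0.0937). Nr4a3 (chr4:48045153-48086447, plus strand) stood at 111 and 132 in young, 20.5 and 40.1 in middle and 39.0 and 25.0 in old members. It fell by 1.99 ± 0.29 (adjusted p = 3.55e-07) and by 1.88 ± 0.30 (adjusted p = 1.25e-05). No old or middle section reached a young value for any of the 3 genes.

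The promoters of the 3 Nr4a genes are shown because the genes moved together and share a short motif. The windows hold the 250 bases before the annotated start (RefSeq, GRCm38.p6), at chr15:101266596-101266845 (plus) for Nr4a1, chr2:57124004-57124253 (minus) for Nr4a2 and chr4:48045055-48045304 (plus) for Nr4a3, 5′ to 3′ on the gene's strand. The RefSeq starts of Nr4a1 and Nr4a3 lie inside the gene spans given above, which are those of GENCODE. Capitals mark the letters TGACG on either strand (CGTCA on the strand shown), which form the core of the cyclic AMP response element that CREB and ATF proteins recognise.
Nr4a1: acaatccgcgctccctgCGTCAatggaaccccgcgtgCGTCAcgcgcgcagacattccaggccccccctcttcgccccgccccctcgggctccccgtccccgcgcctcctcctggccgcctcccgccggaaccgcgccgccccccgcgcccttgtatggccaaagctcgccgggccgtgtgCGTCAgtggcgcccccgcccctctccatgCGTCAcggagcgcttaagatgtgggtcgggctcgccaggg
Nr4a2: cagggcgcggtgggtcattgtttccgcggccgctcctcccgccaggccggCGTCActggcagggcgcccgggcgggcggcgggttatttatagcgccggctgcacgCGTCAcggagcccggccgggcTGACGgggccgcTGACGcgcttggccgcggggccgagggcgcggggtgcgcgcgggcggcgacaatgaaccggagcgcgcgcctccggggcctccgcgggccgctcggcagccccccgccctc
Nr4a3: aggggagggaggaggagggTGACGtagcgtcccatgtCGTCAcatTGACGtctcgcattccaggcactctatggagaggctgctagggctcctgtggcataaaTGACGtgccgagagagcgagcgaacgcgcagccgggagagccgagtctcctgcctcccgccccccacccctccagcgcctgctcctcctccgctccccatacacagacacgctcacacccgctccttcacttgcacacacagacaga
Each window held 4 such matches. Over 27025 gene symbols with a window of this length, 19.79% held at least 1 match, 0.777% at least 3 and 0.163% at least 4. Of the 37 genes called lower in old or middle members, 30 had a window, and 16 of them (53.3%) held at least 1 match. These 16 include the 3 Nr4a genes, for which the motif was shown. The 27025 symbols were not limited to genes that passed the filter on low counts, as the called genes were. The shares therefore have unlike backgrounds, and whether the motif is more frequent among the called genes was not tested. A match is a description of the letters, and binding was not measured.

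Errfi1, Fosl2 and Cebpd, which belong to no list, were called lower at both ages. Errfi1 (ENSMUSG00000028967, chr4:150853919-150868892, plus strand), a feedback inhibitor of the EGF receptor, stood at 165 and 172 TMM-scaled CPM in young, 27.3 and 26.2 in middle and 41.1 and 47.6 in old members. It fell by 2.64 ± 0.27 (adjusted p = 1.88e-13) to 18 months and by 1.93 ± 0.26 (adjusted p = 7.47e-08) to 21 months. The old sections lay between the other ages, and the difference of old and middle had an adjusted p of 0.879. Fosl2, a subunit of AP-1, stood at 131 and 142 in young, 25.6 and 27.9 in middle and 49.3 and 37.6 in old members. Its log2 differences were -2.34 ± 0.29 (adjusted p = 3.71e-10) and -1.63 ± 0.28 (adjusted p = 3.95e-05). Cebpd, a transcription factor of the acute response, stood at 157 and 92.4 in young members and between 22.2 and 45.2 in the other 4 sections. Cebpd was called in both comparisons, with log2 differences of -2.06 and -1.68, and without young section 1 the old against young difference was -1.23 (adjusted p = 0.196).

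Vcam1 and Icam1, a pair of adhesion molecules on which leukocytes bind, were also called lower at both ages. Vcam1 (ENSMUSG00000027962, chr3:116109949-116129688, minus strand), which binds integrins of immune cells, stood at 281 and 212 TMM-scaled CPM in young, 56.4 and 80.2 in middle and 71.9 and 82.6 in old members. The young sections were separate from all others. Vcam1 fell by 1.86 ± 0.22 (adjusted p = 2.66e-10) to 18 months and by 1.68 ± 0.23 (adjusted p = 7.47e-08) to 21 months. Icam1 (chr9:21015985-21028817, plus strand), a ligand of leukocyte integrins, stood at 114 and 110 in young, 13.7 and 48.8 in middle and 22.6 and 32.6 in old members. It fell by 1.84 ± 0.31 (adjusted p = 8.66e-05) and by 2.03 ± 0.34 (adjusted p = 0.000126), and without middle section 1 the difference at 18 months was -1.19 (adjusted p = 0.0712). In middle section 2, 1 spot held 71.4% of the 28 Icam1 UMIs, which lay in 6 members. The summed endothelial markers were 1176 and 998 CPM in young, 989 and 1080 in middle and 1161 and 1480 in old members. Whether endothelial content plays a part in the levels of Vcam1 and Icam1 was not tested.

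The list of chaperone and stress genes holds 18, of which 17 passed the filter on low counts. In old members, 17 of 17 estimates lay below 0 with a median of -0.74, and 2 genes, Hspa1b and Sgk1, were called lower, where 0.223% of all tested genes were. In middle members 15 of 17 lay below 0 with a median of -0.79, and 8 were called lower, where 0.356% of all tested genes were. The median over all tested genes was 0.00 at both ages. The list was chosen with earlier results of these data known, so these shares describe its genes and are no independent test. Hspa1b (chr17:34956436-34959238, minus strand), an inducible heat shock chaperone, stood at 342 and 162 TMM-scaled CPM in young, 22.2 and 15.7 in middle and 16.4 and 22.5 in old members. It fell by 3.73 ± 0.36 (adjusted p = 9.12e-07) and by 3.71 ± 0.38 (adjusted p = 5.44e-06), and a slide block brought the second to an adjusted p of 0.0574. Hspa1a, its near-identical neighbour, stood at 338 and 144 in young and between 20.5 and 39.0 in the other sections. It was called at 18 months (log2 difference -3.27, adjusted p = 0.0355) and not at 21 months (-2.80, adjusted p = 0.1004), and the split of reads between the 2 genes is uncertain. The list's summed level was 6053 and 5428 CPM in young members and 3514 to 3845 CPM in the other sections. In the other spots the sum was 5022 and 5205 CPM in young and 4422 to 4703 CPM in the later sections.

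Other called members of the stress list include known targets of glucocorticoids, NF-kB and p53. Sgk1, a kinase induced by glucocorticoids, stood at 214 and 249 TMM-scaled CPM in young, 88.8 and 105 in middle and 127 and 100 in old members. It was called at both ages, with log2 differences of -1.25 (adjusted p = 1.89e-05) and -1.01 (adjusted p = 0.00471), and without young section 2 or old section 2 the second had adjusted p-values of 0.105 and 0.266. Nfkbia, the inhibitor of NF-kB, stood at 143 and 103 in young, 25.6 and 52.3 in middle and 61.7 and 67.6 in old members and fell by 1.67 ± 0.27 to 18 months (adjusted p = 1.3e-05). At 21 months its log2 difference was -0.94 (adjusted p = 0.133). Cdkn1a, the cell cycle inhibitor p21, fell by 1.81 to 18 months (adjusted p = 0.00119), and Hspb1, a small heat shock protein, by 1.29 ± 0.21 (adjusted p = 1.12e-05). Tsc22d3, a glucocorticoid target, and the chaperone Dnaja1 were also called lower at 18 months, and without young section 1 their adjusted p-values were 0.0592 and 0.565. Without middle section 1 they were 0.881 and 0.410, Tsc22d3 had 0.443 without young section 2, and Dnaja1 had 0.0744 without middle section 2.

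The immediate early list had 13 tested genes, and all 13 estimates lay below 0 at both ages, with medians of -1.28 in middle and -1.41 in old. In this list 2 genes were called at each age: Nr4a1 and Klf4 in middle, and Nr4a1 and Egr1 in old. Over all tested genes the median was 0.00, with 0.356% called lower in middle and 0.223% in old. This list too was chosen with earlier results of these data known, so its shares are a description. Egr1, a zinc finger factor, stood at 501 and 275 TMM-scaled CPM in young, 227 and 145 in middle and 144 and 150 in old members. It fell by 1.41 ± 0.26 to 21 months (adjusted p = 0.0161), and without young section 1 the difference was -0.91 (adjusted p = 0.0965). Klf4, a factor of vessels and barrier cells, stood at 169 and 116 in young, 54.7 and 68.0 in middle and 111 and 50.1 in old members and fell by 1.22 to 18 months (adjusted p = 0.0067). Without young section 1 or middle section 1 its adjusted p was 0.503 and 0.0733.

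Young section 1 had the highest level of the immediate early list. Its sum was 2646 CPM there, 1484 in young section 2, 1034 and 707 in middle and 913 and 677 in old members. Fos, the best known member, stood at 147 TMM-scaled CPM in young section 1 but at 26.7 in young section 2, below the 49.5 and 39.0 of middle and old section 1, and was not called. Btg2 stood at 248 in young section 1 and 58.7 in young section 2, Atf3 at 109 and 30.2, and Dusp1 at 272 and 97.8, and none of the 3 was called in either comparison with young.

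**Figure D4:**
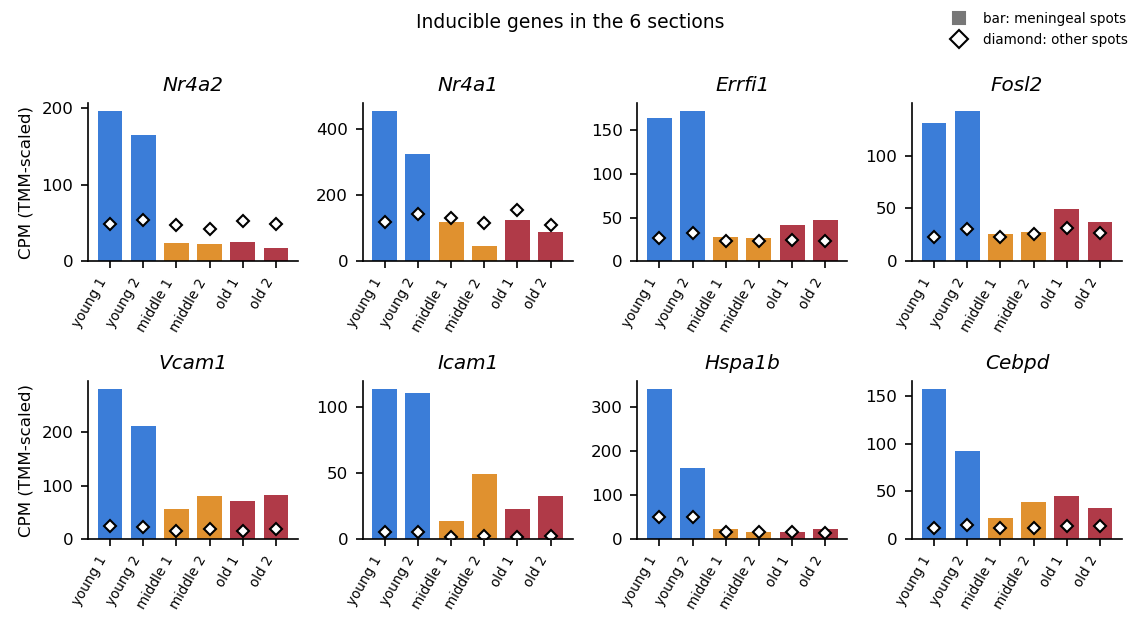
TMM-scaled CPM of 8 genes in the meningeal spots (bars, 1 per section), and CPM without this scaling in the other spots of the same section (diamonds). The axis label applies to the bars. For Nr4a2, Errfi1, Fosl2, Vcam1 and Hspa1b both young bars stand above the 4 middle and old bars, and the diamonds differ less between ages.

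The called genes of this paragraph fall in no list. Ch25h, which makes 25-hydroxycholesterol, had 60 and 19 UMIs in young, 2 and 8 in middle and 3 and 0 in old members. It was called lower at both ages (adjusted p = 0.0323 and 0.0167), and without young section 1 at neither (adjusted p = 0.896 and 0.196). Csrnp1, a nuclear protein, had 23 and 11 UMIs in young members and 1 and 0 in old members, and the transcript Gm12840 13 and 25 against 2 and 0. Both were called lower in old, and without old section 2 their adjusted p-values were 0.239 and 0.266. Csrnp1 also lost its call without young section 1 (adjusted p = 0.669) and Gm12840 without young section 2 (adjusted p = 1.00). Tmem252, Tmcc3 and the mitochondrial carrier Slc25a25 were called lower at both ages. Without old section 2 or young section 2 Tmem252 was not called in old (adjusted p = 0.234 and 0.0861). Slc25a25 was not called in old without young section 1 or old section 1 (adjusted p = 0.139 and 0.0962), nor in middle without young section 1, middle section 1 or middle section 2 (adjusted p = 0.503, 0.0604 and 0.233). Tmcc3 stood at 103 and 94.2 TMM-scaled CPM in young, 41.0 and 20.9 in middle and 32.9 and 25.0 in old members, and without middle section 2 the difference at 18 months had an adjusted p of 0.0779. Vxn and mt-Atp8 were called in old and not in middle. Without young section 2 or old section 1 the adjusted p of Vxn was 0.182 and 0.143, and without young section 1 or old section 2 that of mt-Atp8 was 0.496 and 0.830. The mitochondrial gene mt-Atp8 overlaps mt-Atp6, so their reads may be shared.

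Genes called in middle and not in old members, none of which differed between old and middle, included Lcn2, an iron-binding acute phase protein, Tnfrsf12a, a receptor of the TNF family, and Slc2a1, the glucose transporter of barrier cells. Lcn2 was the 1 gene called of the 10 tested in the complement and acute phase list, where 0.356% of all tested genes were called lower. Slc2a1 stood at 242 and 270 TMM-scaled CPM in young, 121 and 150 in middle and 164 and 208 in old members and fell by 0.91 (adjusted p = 0.00645), with adjusted p-values of 0.125 and 0.319 without young section 2 or middle section 1. Lcn2 had 24 and 13 UMIs in young, 3 and 1 in middle and 1 and 9 in old members, and without young section 1 or middle section 2 it was not called (adjusted p = 0.879 and 0.199). Without middle section 1 or young section 2 the adjusted p of Tnfrsf12a was 0.472 and 0.119. Kl, which encodes klotho, was the called member of the choroid plexus list (log2 difference -1.58, adjusted p = 0.0355), and without the 2 members of young section 2 and those of old sections 1 and 2 that were also among the highest choroid plexus spots it was not called (adjusted p = 0.999). Kl was also not called without young section 2, middle section 1 or middle section 2 (adjusted p = 0.998, 0.154 and 0.233). Ccn1, Tagln2, Ifrd1, Hs3st1, Adamts1 and Gpr17 made up the rest. Without young section 1 their adjusted p-values were 0.984, 0.763, 0.0769, 0.0510, 0.271 and 0.0786, so that none of these 6 was called. Each of the 6 also lost its call without at least 1 of the other 3 sections compared.

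Higher levels were called for 1 gene at each age. Cabp7, a calcium-binding protein of neurons, had 4 and 11 UMIs in young, 16 and 17 in middle and 32 and 12 in old members. It rose by 2.01 ± 0.44 on the log2 scale to 21 months (adjusted p = 0.0106), and without young section 1 or old section 1 the estimate was 1.32 or 1.28, with adjusted p-values of 0.524 and 0.730. AC149090.1 stood at 109 and 176 TMM-scaled CPM in young, 301 and 211 in middle and 197 and 243 in old members and rose by 0.86 ± 0.21 to 18 months (adjusted p = 0.0274). Without young section 1 or middle section 1 its adjusted p was 0.972 and 0.754. Its level in the other spots was 117 and 152 CPM in young and 258 to 281 CPM at the later ages.

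Old and middle members differed in 1 gene, 0.0111% of those tested. Meg3, a maternally expressed long non-coding RNA of neurons, stood at 794 and 621 TMM-scaled CPM in middle and 427 and 308 in old members, with 612 and 666 in young. It fell by 0.94 ± 0.18 from middle to old (adjusted p = 0.0096), and without middle section 1 or old section 2 it was not called (adjusted p = 0.286 and 0.557). Meg3 was also called lower in old against young (-0.79, adjusted p = 0.0167), but not without old section 2 (adjusted p = 0.782) or young section 2 (adjusted p = 0.0610). With DESeq2 Meg3 was called in neither comparison (adjusted p = 0.336 against middle and 0.443 against young). In the other spots of old section 2 Meg3 was also low, at 497 CPM against 857 to 995 CPM in the other 5 sections. No other gene was called between these ages, and at an unadjusted p under 0.05 there were 505 genes. The fit did not use the pairing of the middle and old sections by slide.

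Whether the age difference was that of the whole section was tested with an interaction term, the old minus young difference in members less that in the other spots of the same sections. In 26 genes (0.289%) these differences were not the same, and in 23 (0.256%) the old minus young difference was lower in members (a negative term). Nr4a2 stood at 48.3 and 54.3 CPM in the other spots of the young sections and at 52.4 and 48.2 in those of the old. Its interaction term was -3.02 ± 0.31 (adjusted p = 3.9e-19). In limma with a slide term it was not called (adjusted p = 0.245). Nr4a1 had a term of -1.87 ± 0.20 (adjusted p = 1.61e-17), Nr4a3 -1.96 ± 0.30 (adjusted p = 2.12e-07) and Fosl2 -1.74 ± 0.29 (adjusted p = 3.21e-06). For Hspa1b the other spots were lower in old too, at 51.2 and 49.9 in young and 16.7 and 13.2 in old sections, and the term was -1.89 ± 0.35 (adjusted p = 4.88e-05), which without young section 1 or old section 1 was -1.33 or -1.49 (adjusted p = 0.322 and 0.351). Sgk1 and Icam1, both lower in old members, had terms of 0.19 and -0.61 with adjusted p-values of 0.999 each. Of the 26 genes, 6 were called with each section left out in turn, namely Nr4a1, Nr4a2, Nr4a3, Fosl2, C4b and Lyz2. The count was 12 without young section 1, 14 without old section 1, 17 without old section 2 and 6 with all sums thinned to the smallest, and with slide as a block, in limma, it was 0.

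Among the genes with a negative term were also glial and immune genes. Their level in the other spots was higher in both old sections than in both young ones. In this paragraph values of members are TMM-scaled CPM, and those of other spots are CPM without this scaling. C4b (chr17:34728380-34743882, minus strand), a complement component, stood at 22.3 and 15.9 in the other spots of young sections and at 76.2 and 103 in those of old sections. In members it stood at 140 and 97.8 in young, 138 and 171 in middle and 183 and 235 in old sections. The richest spot held 28.1% of the C4b UMIs in young section 1 and 9.09 to 14.9% in the other sections. The member difference of 0.79 ± 0.21 was not called (adjusted p = 0.0924), and the interaction term was -1.36 ± 0.21 (adjusted p = 3.27e-07). The term compares log2 differences, and the members stood above the other spots in both young and both old sections. With thinned sums, 20 spots, scores from thinned spots, or limma with or without a block, the C4b term was not called. Lyz2, lysozyme of macrophages, stood at 166 and 108 in young and 115 and 173 in old members, against 10.8 and 8.66 and then 24.8 and 41.3 in the other spots, with a term of -1.63 ± 0.24 (adjusted p = 4.97e-08). Gfap (chr11:102887336-102900912, minus strand), the filament protein of reactive and surface astrocytes, stood at 806 and 498 in young, 444 and 565 in middle and 614 and 944 in old members. The richest spot held 32.2% of the Gfap UMIs in young section 1 and 37.1% in old section 2, against 13.6 to 22.9% elsewhere. In the other spots Gfap stood at 68.9 and 71.5 in young and 114 and 170 in old sections, and the term of -0.70 ± 0.14 (adjusted p = 0.000427) was -0.33 (adjusted p = 0.956) without young section 1.

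The rank of the score gave a further view, added after the values were seen and given without a test. In young section 1, Nr4a2 stood at 186 CPM in ranks 1 to 35, 111 in ranks 36 to 85, 29.8 in ranks 86 to 185 and 48.02 in the remaining spots. In young section 2 the same steps were 164, 77.7, 29.7 and 54.7 CPM. The middle and old sections showed no such peak: in old section 2 the steps were 17.1, 15.6, 12.9 and 49.6 CPM. Vcam1 was graded at every age, from 266 to 153, 97.2 and 19.5 CPM in young section 1 and from 80.7 to 72.2, 45.7 and 16.9 in old section 2. Hspa1b was graded in young section 1, at 324, 172, 113 and 47.0 CPM, and stood at 15.4, 20.1, 12.8 and 16.7 in old section 1. C4b was graded in young section 2, at 96.8, 52.1, 41.6 and 14.6 CPM, while in old section 2 it stood at 230, 229, 228 and 97.9.

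**Figure D5:**
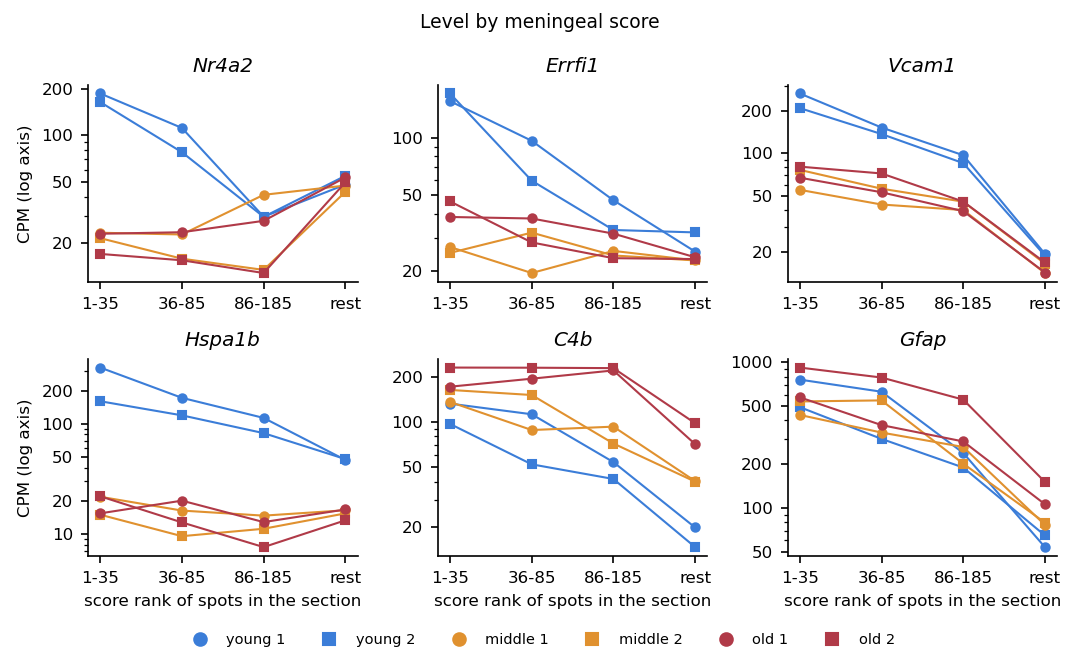
CPM (log axis) of 6 genes by rank of the meningeal score in each section, for ranks 1 to 35, 36 to 85, 86 to 185 and all remaining spots. Nr4a2, Errfi1 and Hspa1b have a peak at the highest ranks in the 2 young sections, Vcam1 declines with rank in all 6 sections, and C4b stays between 171 and 230 CPM over the first 185 ranks in the old sections.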

How the data were processed

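The authors deposited UMI counts per gene and spot for 6 sections. Per the file headers the program was Space Ranger 1.3.1, and the mouse build was mm10 per the submitters' processing notes. The gene annotation is not given in the sources used here. The files list 32285 genes, and every spot with at least 500 UMIs was kept. The UMIs of the 35 members, and of the other spots, were summed per section with Python 3.11.15, numpy 2.4.6, pandas 2.3.3 and scipy 1.17.1, because spots of 1 section are not replicates. The total of each member sum sets its precision: in old section 2 the 22.5 TMM-scaled CPM of Hspa1b rest on 9 UMIs.

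Ages were compared with edgeR 4.0.16 in R 4.3.3 (filterByExpr by group, TMM factors, robust quasi-likelihood fit with the legacy quasi-dispersion, all 6 sections in 1 fit with 3 residual degrees of freedom, two-sided tests, Benjamini-Hochberg adjustment over all 8987 genes tested, threshold 0.05). The interaction used 12 sums with section as a block. Member spots against other spots were described without a test. Values called CPM are UMIs per 1000000 UMIs of the sum, and TMM-scaled CPM are those of the tested genes after scaling. Member sums are given in either unit, and other spots in CPM only, so TMM-scaled member values and values of other spots are on unlike scales.

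The members, the gene lists and the tests were chosen with earlier results of these data known. Named were, per comparison and direction, the 10 called genes with the largest log2 difference among those with a mean of at least 10 CPM and no overlap between groups, the 20 leading genes of the members, and up to 6 genes of each list, called ones first. Vcam1, Tmcc3, Slc25a25, Slc2a1, Vxn, mt-Atp8, Ccn1, Tagln2, Ifrd1, Hs3st1, Adamts1, Gpr17, Avp, Cebpb and Ndn were named after their values were seen, and so were further list genes that were called. Lists are described by counts and medians without a set test.

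Alternatives were DESeq2 1.42.0, limma 3.58.1 on log2(CPM + 1), other size factors, filters, dispersions, blocks for slide and replicate number, subsets of sections, thinned counts, other choices of member spots and each section left out in turn. The fitting steps were tested on simulated data. Gene positions are those of GENCODE M21 on GRCm38, found for 286 of 287 identifiers, and promoter windows those of RefSeq.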

Additional observations from a re-analysis of the deposited data

Results flagged for a closer look

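In 26 genes the old minus young difference of the meningeal spots differed from that of the other spots of the same sections, tested by the interaction term in edgeR's quasi-likelihood fit. The log2 values are the difference in members less that in the other spots. Among the inducible regulators, Csrnp1 had -4.27, Atf3 -3.56, Nr4a2 -3.02, Btg2 -2.67, Nr4a3 -1.96, Nr4a1 -1.87, Dusp1 -1.80 and Fosl2 -1.74. Cebpd had -1.705, Cebpb -1.675, Errfi1 -1.57 and Egr1 -1.07. For the chaperone Hspa1b the value was -1.89 and for the adhesion molecule Vcam1 -1.16. Errfi1 was not called without old section 1 (adjusted p = 0.0520), and with all sums thinned to the smallest its value was -0.019 (adjusted p = 1). Cebpd was not called without young section 1 or old section 2 (adjusted p = 0.730 and 0.0917). Egr1 was not called without young section 1, old section 1 or old section 2 (adjusted p = 0.889, 0.886 and 0.634), and it was called under 7 of 22 alternatives. Vcam1 was not called without young section 1, old section 1 or old section 2 (adjusted p = 0.201, 0.0830 and 0.128) or with thinned sums. Of the 26 genes, 20 lost their call without at least 1 section.

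Btg2, Atf3 and Dusp1 had UMIs mostly in young section 1: 170 of Btg2 against 33 in young section 2, 75 against 17 of Atf3, and 187 against 55 of Dusp1. Without young section 1 their values were -1.45, -2.87 and -0.86 and none was called (adjusted p = 0.435, 0.581 and 0.761). Cebpb had 188 and 87.1 TMM-scaled CPM in young and 55.5 and 20.0 in old members, and without young section 1 its value was -0.89 (adjusted p = 0.884).

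Glial and immune genes with a negative interaction term were Lyz2 (-1.63), Serpina3n (-1.59), C4b (-1.36) and Gfap (-0.70). Serpina3n stood at 91.8 and 16.0 TMM-scaled CPM in young and 34.9 and 55.1 in old members, so that the young sections lay on both sides of the old ones. Of its UMIs in members, 1 spot held 46.0 and 22.2% in young and 64.7 and 40.9% in old sections. The remaining negative terms were those of Avp (-4.28), Tmcc3 (-1.68), Slc25a25 (-1.36), Vxn (-1.14) and Ndn (-1.03). Avp, the neuropeptide vasopressin, stood at 154 and 5.33 TMM-scaled CPM in young and 10.3 and 5.01 in old members. In the other spots Avp stood at 111 and 2.97 CPM in young and 211 and 3.45 CPM in old sections. Replicates of 1 age thus differed more in Avp than the ages did.

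Positive interaction terms were found for Tbc1d12 (2.06), Cabp7 (1.78) and Nsd3 (1.46). Nsd3, a histone methyltransferase, stood at 23.3 and 19.6 TMM-scaled CPM in young and 59.6 and 55.1 in old members. In the other spots of all 6 sections Nsd3 stood at 39.4 to 42.4 CPM. Without young section 1 none of the 3 was called (adjusted p = 0.828, 0.262 and 0.218).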

How the results depend on the processing

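The count of genes called between old and young, 21, was 8 with DESeq2, 45 without a filter on low counts, 10 with slide as a block and 45 with a replicate block, and with each section left out in turn it ranged from 26 to 50. Without old replicate 1 the 50 calls were 20 higher and 30 lower. For middle against young the count of 33 was 14 with DESeq2, 55 without the filter, 16 with slide as a block, 52 with a replicate block, 20 with thinned sums, 20 with the 20 highest-scoring spots and 16 in limma, and 31 to 52 with a section left out. Old against middle gave 1 call. It gave 2 with DESeq2, 5 without the filter, 2 with slide as a block, 8 with a replicate block, 6 with the 2 groups alone and 9 on the first slide. It gave 3 with thinned sums, 3 with 20 spots, 0 with 50 spots, 0 with a common score threshold of 3.11, 3 with scores from thinned spots, 2 without choroid plexus spots, 3 in limma and 6 to 22 with a section left out.

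The interaction count of 26 was 10 with DESeq2, 0 with slide as a block and 0 with a replicate block (both in limma on within-section differences), 6 with thinned sums, 6 with 20 spots, 12 with 50 spots, 9 with scores from thinned spots, 1 in limma without a block (Nr4a2) and 12 to 36 with a section left out. Where a count moved, the cause was not tested. Deviations of sections with the same replicate number correlated at -0.07 (young and middle), -0.02 (young and old) and -0.02 (middle and old) over genes. In middle and old the replicate number is also that of the slide, so by design it pairs these sections. The main fit did not use this pairing. Reversed values in the interaction were those of Avp without old replicate 1 (0.10, range -4.80 to 0.10 with a section left out) and of Serpina3n with scores from thinned spots (0.035) and without young replicate 1 (0.19, range -2.37 to 0.19). The median ratio of the 4 score genes in members to other spots was 49.1, and 55.3 with 20 spots. That of the fibroblast list was 29.4, and 15.3 without Ptgds, a choice made after seeing the data. Nr4a2, Errfi1 and Vcam1 were called lower in old, and they and Fosl2, Cebpd, Nr4a3, Hspb1 and Hspa1b lower in middle, under every alternative that tested them. Hspa1b in old lost its call with slide as a block (adjusted p = 0.0574), and Fosl2, Nr4a3 and Icam1 in DESeq2 (0.0795, 0.0599 and 0.0983). Depth limits what can be seen: 408875 UMIs in the smallest member sum give Nr4a2 7 UMIs in old section 2.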
